A study of Oncorhynchus mykiss with 9 samples.

Results

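The genes described here encode chemokines, interleukins, members of the tumor necrosis factor (TNF) family, their receptors, innate pattern receptors and the adaptors and kinases that carry their signals. They were found by gene description (C-C or C-X-C motif chemokine, C-C or C-X-C chemokine receptor, interleukin, toll-like receptor, tumor necrosis factor) or by symbol (ripk1, ripk2, ripk3, nod1, nod2, myd88, and symbols beginning with traf or irak). This rule was met by 360 of the 42127 genes deposited. The 104 whose FPKM averaged 0.5 or more across the 9 libraries are reported. FPKM corrects fragment numbers for transcript length and sequencing depth, which allows levels of different genes to be set side by side. Over all genes, 18229 reached the same mean and were tested.

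Total RNA of liver from wild-type rainbow trout (Oncorhynchus mykiss) was sequenced in 3 control libraries, 3 libraries of moderate hypoxia and 3 of acute hypoxia, hypoxia being oxygen shortage. The design names a 12 h exposure in wording that may cover both treatments or only the acute one, and the sources used here do not give oxygen levels, age or strain. Whether each library stands for a different fish is not stated, and the p-values may therefore reflect technical spread alone. Read totals are unknown, and depth relative to the first control library, judged from the steps between low values, was 0.947 to 1.29.

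Chemokines are small secreted proteins that direct leukocytes along a gradient by way of receptors on the leukocyte surface. Interleukin-1, toll-like and TNF receptors recruit adaptors such as MyD88 and TRADD, then IRAK and RIP kinases and TRAF ubiquitin ligases, and these activate the transcription factor NF-kappa-B. In the liver such signals come from and act on hepatocytes and resident macrophages, and interleukin-6 signalling through gp130 drives the acute-phase response of hepatocytes. The salmonid ancestor duplicated its genome, so many of these genes are present as several copies: 46 of the 104 genes shared their product name with another of them, 18 names in all. Where copies are near-identical, reads may have been split between them, and their values are uncertain to that extent.

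Hepatocyte marker genes summed to 38440 to 40170 FPKM in control, 34720 to 36330 in moderate and 39790 to 40700 in acute hypoxia, with serum protein genes among the highest. Leukocyte genes were present at low levels. The 17 macrophage genes matched summed to 65.6 to 74.9 FPKM in control, 62.2 to 67.8 in moderate and 55.8 to 67.0 in acute hypoxia. Within that sum the legumain gene LGMN (ncbi_110505985) had 14.3 to 15.7, 14.5 to 16.3 and 17.9 to 19.8 FPKM. Of 10 macrophage genes tested, 9 had a log2 difference from control below the median of all genes and 1 above it, in either hypoxia group. The median log2 difference was -0.26 over the 10 genes and -0.04 over all genes in acute hypoxia. In moderate hypoxia these medians were -0.04 and 0.17. In acute hypoxia 1 of the 10 was called, as lower, 10% against 3.5% of all genes. In moderate hypoxia 0 were called. The 17 granulocyte genes summed to 16.8 to 24.9, 17.1 to 46.7 and 18.6 to 24.9 FPKM. The first moderate library had the highest granulocyte sum, through a myeloperoxidase gene (MPO, ncbi_110532736) at 18.6 FPKM against 1.08 to 3.88 in the other 8 libraries. The 16 genes of T and NK cells summed to 14.6 to 15.5 FPKM in control, 16.1 to 17.45 in moderate and 14.4 to 15.2 in acute hypoxia, moderate hypoxia lying above all other libraries. Most of that sum came from the perforin gene Prf1 (ncbi_110492656), at 11.3 to 12.25 FPKM in control, 12.6 to 14.2 in moderate and 11.4 to 12.1 in acute hypoxia, while the T cell gene cd3e lay between 0.248 and 0.811 FPKM in all 9 libraries. B cell genes summed to 46.1 to 57.4 FPKM in control, 37.4 to 48.8 in moderate and 44 to 55.9 in acute hypoxia. The largest part came from Blnk (ncbi_110536183), at 22.7 to 25.4, 19.5 to 22.3 and 21.5 to 26.6 FPKM. Many others had the symbol CD22 but another product name. CD79A (ncbi_110537828) had 2.18 to 3.59, 1.37 to 1.84 and 0.676 to 1.57 FPKM. Its copy (ncbi_110510079) had 0.357 to 0.566, 0.67 to 0.813 and 0.305 to 0.444 FPKM. Endothelial genes summed to 16.6 to 16.9, 19.9 to 23.9 and 17 to 17.8 FPKM. Genes of stellate cells and fibroblasts summed to 77.7 to 97.8 FPKM in control, 114 to 150 in moderate and 91.8 to 142 in acute hypoxia. Their part in the results below was not tested, and in whole tissue fewer cells of a type and less RNA per cell cannot be told apart.

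Most cytokine genes were close to the limit of what these libraries show. None of 20 genes for TNF ligands reached the minimum mean, nor did 34 of 39 interleukin genes, 33 of 35 chemokine receptor genes, 30 of 39 chemokine genes and 33 of 38 toll-like and NOD receptor genes. Of the 256 genes below the minimum, 33 were listed at 0 in all 9 libraries, among them il10 (ncbi_100136835), which encodes an anti-inflammatory cytokine. The 3 genes for TNF itself, tnfa (ncbi_110487867) and both tnf genes (ncbi_100136064 and ncbi_110496727), had means of 0.0752, 0.0336 and 0.0219 FPKM. Of 4 genes for interleukin-1 beta, the highest was Il1b (ncbi_110509557) with a mean of 0.425 FPKM, followed by il1b genes with 0.0462 (ncbi_100136024) and 0.00689 FPKM (ncbi_110536401), and the last (ncbi_110522811) was listed at 0 throughout. The genes next to the minimum were tnfrsf1b (ncbi_110527838) with a mean of 0.505 FPKM, just inside, and CCL8 (ncbi_110494096, annotated as C-C motif chemokine 4) with 0.486 FPKM, just outside. Interleukin and TNF receptors and adaptors fared better than these: 23 of 71 interleukin receptor genes, 18 of 48 TNF receptor genes and 22 of 42 adaptor and kinase genes were reported. Over all genes 18229 of 42127 reached the minimum, a larger share than in either of these receptor classes and a smaller one than in adaptors and kinases. The median of the 104 genes was 1.68 FPKM, against 1.94 FPKM over all genes tested.

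In moderate hypoxia against control, 22 of the 104 genes were higher and 5 lower (limma on log2(FPKM + 0.5), called where p, adjusted by Benjamini-Hochberg for every gene tested, was under 0.05). Adaptors and kinases made up 10 of the 22, led by both TRAF7 genes, while 3 of the 5 lower genes encoded chemokines. They were 45.5% of 22 adaptor and kinase genes and 33.3% of 9 chemokine genes, against 22.3% and 3.94% of all genes. The share of the 104 called, 26.0%, was close to the 26.2% of all genes called. So were its parts, 21.2% higher and 4.81% lower against 22.3% and 3.94%. All genes had a median log2 difference of 0.17 in this comparison, and changes in it are given below relative to that median, with limma's p for the change before subtraction. Under median-of-ratios scaling, which removes the shift, 11 genes were higher and 8 lower, against 9.87% and 11.6% of all genes.

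In acute hypoxia against control, 2 genes were higher and 5 lower, 6.73% against 5.9% of all genes. The kinase gene RIPK2 and a gene for C-C motif chemokine 19 fell furthest, and a TRAF7 gene rose furthest. The median log2 difference was -0.003 over the 104 genes and -0.04 over all genes tested. With median-of-ratios scaling 4 genes were higher and 6 lower, against 3.25% and 2.92% of all genes. With each library left out in turn 3 of the 7 calls held. In moderate hypoxia against control 15 of 27 did, and in acute against moderate hypoxia 17 of 32. The 3 were RIPK2, the chemokine 19 gene and TNFAIP2, which also held in each alternative fit that tested them. Of these, TNFAIP2 did not reach an added fold threshold of 1 on the log2 scale, and RIPK2 was too low to be tested with a minimum mean of 5 FPKM. The added 0.5 shrinks log2 differences of genes at low FPKM, so these understate the ratio of means.

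In acute against moderate hypoxia, 3 genes were higher and 29 lower, 30.8% against 29.6% of all genes, whose median log2 difference was -0.21. Changes in this comparison are also given relative to the median unless stated otherwise, with limma's p for the change before subtraction. With median-of-ratios scaling 7 genes were higher and 16 lower, against 11% and 8.39% of all genes. All 10 adaptor and kinase genes called were lower, 45.5% of 22 against 26.1% lower over all genes. Of these, 8 were called lower under median-of-ratios scaling too, against 8.39% of all genes. The 3 comparisons share libraries, so their calls are not independent of each other. The plot of log2 changes by class shows 18 of 22 adaptors and kinases above the median of all genes in moderate hypoxia against control, and 15 of 22 below it in acute against moderate hypoxia.

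**Figure D1:**
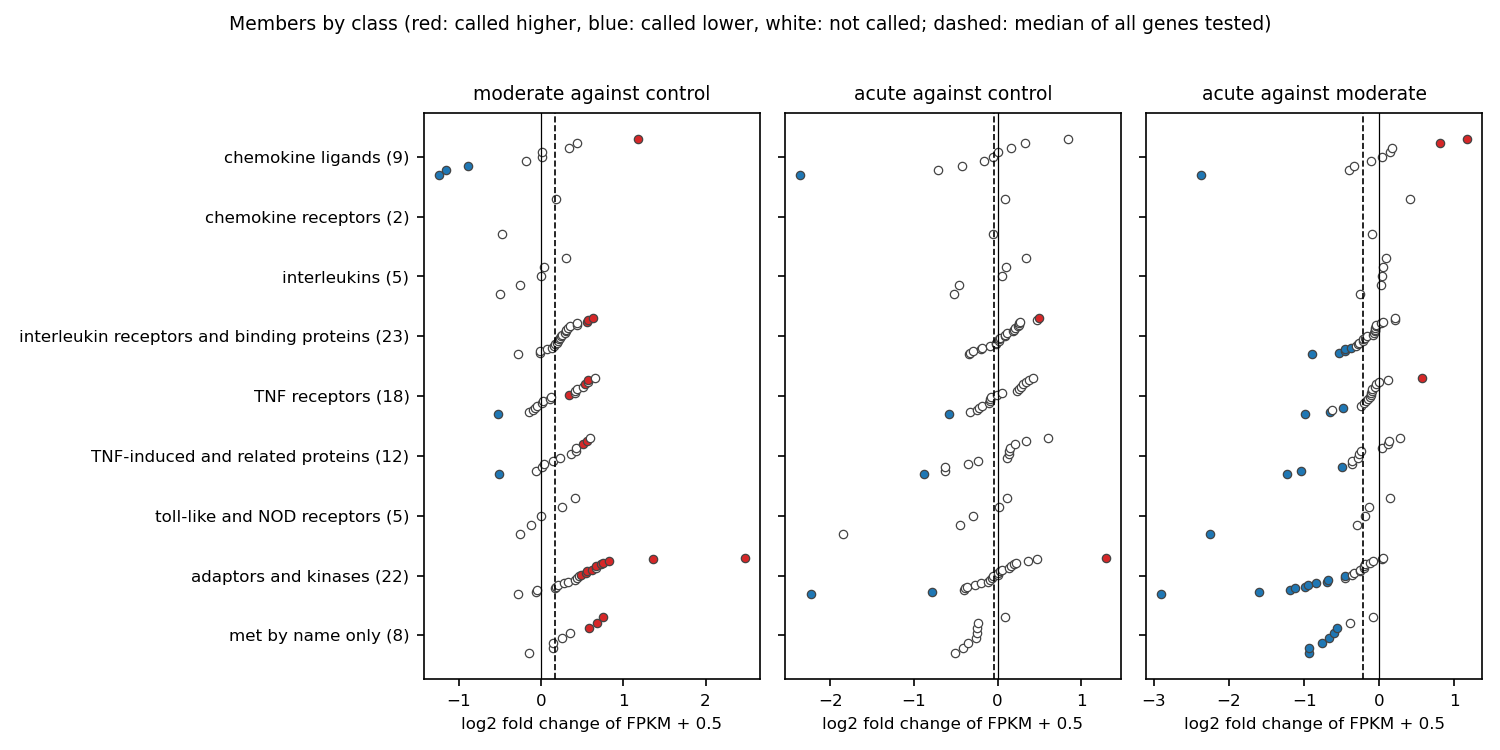
Log2 fold change of FPKM + 0.5 on the horizontal axis for each of the 104 genes, by class (number of genes in brackets), in the 3 comparisons; filled points were called by limma at an adjusted p under 0.05. In moderate against control 10 of 22 adaptors and kinases (45.5%) were called higher and 0 lower, against 22.3% of all genes higher. In acute against moderate hypoxia 10 (45.5%) were called lower and 0 higher, against 26.1% of all genes lower.

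Chemokine genes moved in both directions. The most abundant, a gene for C-C motif chemokine 19 (ncbi_110523665), a ligand that guides T cells and dendritic cells in mammals, stood at 14.0, 26.8 and 6.20 FPKM in control. It had 14.2, 13.2 and 13.05 FPKM in moderate hypoxia and 1.86, 1.69 and 3.35 FPKM in acute hypoxia. Each acute library lay below each control library, although control values spanned a wide range, and the moderate values lay within that range. The acute mean was 6.82-fold below the control mean, and the gene fell by 2.35 on the log2 scale (SE 0.39, limma adjusted p = 0.00593). The fall was between 1.87 and 2.88 with 1 library left out, each time past the test.

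A second C-C motif chemokine 19 gene (ncbi_110536449) went another way, with 0.657, 1.34 and 2.25 FPKM in control, 0.265, 0.378 and 0.289 FPKM in moderate hypoxia and 2.14, 1.70 and 0.529 FPKM in acute hypoxia. Moderate values lay below all others. It fell by 1.32 relative to the median in moderate hypoxia (limma adjusted p = 0.0313), but the call was lost on leaving out any of 5 of the 6 libraries compared and in 3 of 10 alternative fits (highest adjusted p 0.109). The remaining copy (ncbi_110509876), at 0.685 to 1.58 FPKM, was called in none of the 3 comparisons.

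The gene annotated as C-C motif chemokine 13 with the symbol CCL24 (ncbi_110516630), a ligand of the family that attracts monocytes and eosinophils in mammals, had 2.21, 3.52 and 1.95 FPKM in control, 0.563, 1.11 and 0.688 FPKM in moderate hypoxia and 1.36, 1.22 and 2.95 FPKM in acute hypoxia. It fell by 1.40 relative to the median in moderate hypoxia (limma adjusted p = 0.00798), with no overlap between the groups, and was past the test with each library left out. Acute libraries lay above moderate ones (relative change 1.03, limma adjusted p = 0.0443), a call lost without any of 4 libraries and in 4 of 10 alternative fits (highest adjusted p 0.151).

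Of 2 neighbouring genes for C-X-C motif chemokine 11, a ligand induced by interferon in mammals, one (ncbi_110485790) had 1.65, 2.40 and 2.83 FPKM in control and 1.17, 0.779 and 1.04 FPKM in moderate hypoxia, a fall by 1.05 relative to the median (limma adjusted p = 0.0138; 0.0519 without control replicate 3). Acute libraries, at 1.83, 1.02 and 0.827 FPKM, overlapped both groups. Its neighbour (ncbi_110485791) had 1.25 to 2.93 FPKM in control and 0.898 to 2.39 FPKM in moderate hypoxia and was not called (adjusted p = 0.66). One chemokine gene was higher in moderate hypoxia, a gene for C-C motif chemokine 20-like protein (ncbi_118938790), the mammalian form of which attracts lymphocytes and dendritic cells. It rose from 0.546, 0.095 and 0.303 FPKM to 1.38, 0.781 and 1.92 FPKM, by 1.015 relative to the median (limma adjusted p = 0.0104). In acute hypoxia it had 0.973, 0.553 and 1.36 FPKM, each above each control value, without passing the test (adjusted p = 0.11).

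**Figure D2:**
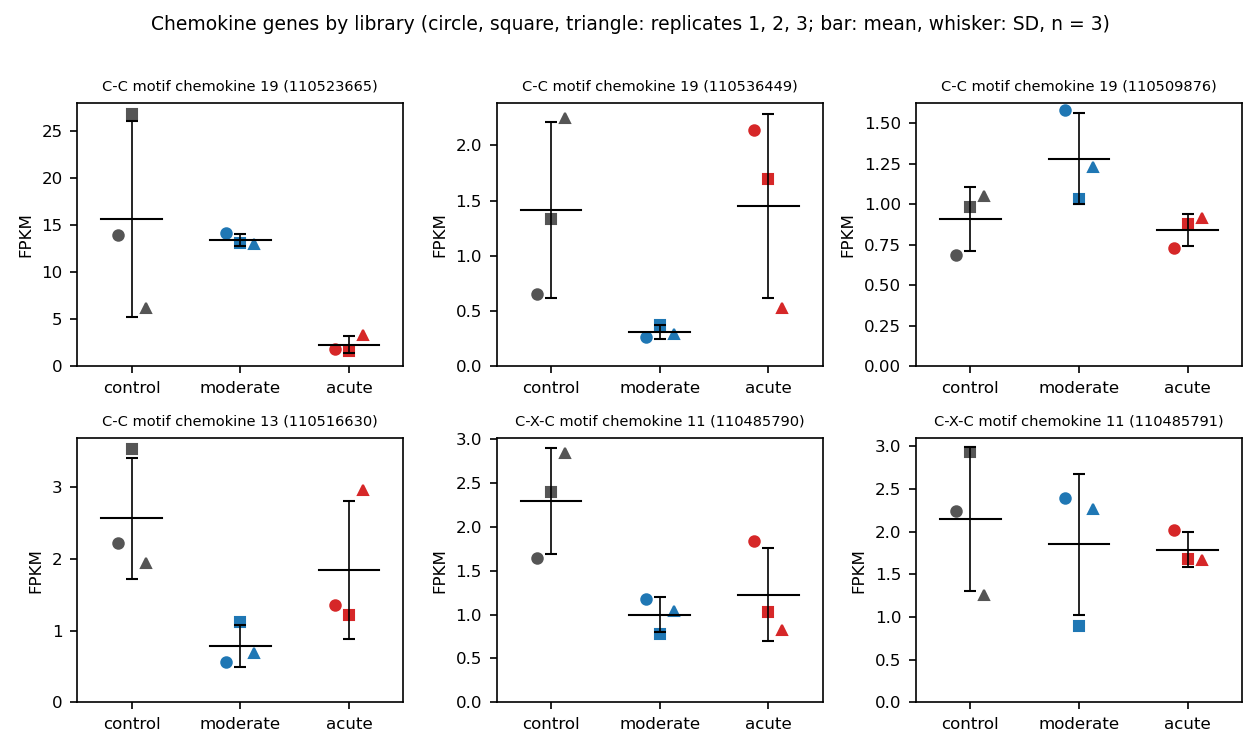
FPKM (vertical axis, linear, from 0) of 6 chemokine genes in each of the 9 libraries, with mean and SD of 3 libraries a group. The 3 genes for C-C motif chemokine 19 differ in pattern: ncbi_110523665 is lowest in acute hypoxia (1.69 to 3.35 FPKM), ncbi_110536449 is lowest in moderate hypoxia (0.265 to 0.378 FPKM) and ncbi_110509876 passed no test.

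Interleukins and chemokine receptors showed no call in any comparison under the deposited scaling. The most abundant interleukin gene was il6 (ncbi_100136689), which encodes the inducer of the acute-phase response, at 6.33, 8.11 and 6.60 FPKM in control, 6.62, 7.52 and 7.30 FPKM in moderate and 6.84, 8.001 and 6.95 FPKM in acute hypoxia. The groups overlapped. The gene il34 (ncbi_100873160), a ligand of the macrophage growth factor receptor, had 1.09 to 1.44 FPKM in control and 0.486 to 1.22 FPKM in moderate hypoxia. It was called lower in moderate hypoxia under median-of-ratios scaling but not under the deposited one (adjusted p = 0.073). The receptor genes CCR9 (ncbi_110509110) and CCR8 (ncbi_110530382), which guide lymphocytes, had means of 0.553 and 0.545 FPKM.

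Among interleukin receptors, 3 of 23 genes rose in moderate hypoxia and 1 rose in acute hypoxia, 13% and 4.35% against 22.3% and 2.4% of all genes. The most abundant gene of all 104 was an interleukin-1 receptor type 1 gene (ncbi_110520326), at 69.8, 72.3 and 66.2 FPKM in control, 74.8, 79.5 and 85.5 FPKM in moderate and 65.6, 66.8 and 73.9 FPKM in acute hypoxia. Moderate libraries lay above control libraries, but the difference did not pass the test (adjusted p = 0.119) and was 0.03 relative to the median. The gene gp130 (ncbi_101268915), the shared signalling subunit of the interleukin-6 family receptors, had 10.1, 8.87 and 10.3 FPKM in control, 16.1, 16.3 and 13.6 FPKM in moderate hypoxia and 12.1, 11.5 and 11.3 FPKM in acute hypoxia. It rose in moderate hypoxia by 0.46 relative to the median (limma adjusted p = 0.00193), with no overlap between the groups, past the test in each alternative fit but short of the fold threshold. The difference of acute from control did not pass the test (adjusted p = 0.204). Another gp130 copy, Il6st (ncbi_110509538), at 12.0 to 12.4 FPKM in control and 14.3 to 16.0 FPKM in moderate hypoxia, did not pass either (adjusted p = 0.0587).

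Il1rap (ncbi_110490048), the accessory chain without which the interleukin-1 receptor does not signal, was chosen after its values were seen. It had 1.43, 1.79 and 1.73 FPKM in control, 3.25, 2.40 and 2.47 FPKM in moderate hypoxia and 1.09, 1.22 and 1.33 FPKM in acute hypoxia. The 3 groups did not overlap, with moderate hypoxia highest and acute hypoxia lowest. It rose by 0.40 relative to the median in moderate hypoxia (limma adjusted p = 0.00974; 0.0518 under quantile normalization), and acute hypoxia did not differ from control past the test (adjusted p = 0.19). An interleukin-17 receptor C gene (wu:fl23c11, ncbi_110492428), a receptor chain for interleukin-17 cytokines, had 2.80, 2.67 and 3.22 FPKM in control and 4.83, 4.24 and 3.84 FPKM in acute hypoxia. Its rise by 0.50 (limma adjusted p = 0.0288) was lost on leaving out any of 4 libraries and in 3 of 11 alternative fits (highest adjusted p 0.11).

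Toll-like receptors were led by tlr5 (ncbi_100135812), the receptor for bacterial flagellin. It had 14.2, 25.3 and 4.89 FPKM in control, 17.9, 17.1 and 14.1 FPKM in moderate hypoxia and 0.927, 3.67 and 6.81 FPKM in acute hypoxia. The third control library lay within the acute range, and acute against control did not pass the test (log2 difference -1.85, SE 0.58, limma adjusted p = 0.0964). Acute libraries lay below all moderate libraries, a fall by 2.04 relative to the median (limma adjusted p = 0.0152; 0.0567 without moderate replicate 1; 0.057 with robust variances). The receptor for double-stranded RNA, tlr3 (ncbi_100136342), stayed between 5.56 and 7.04 FPKM in all 9 libraries and was not called under the deposited scaling. No toll-like or NOD receptor gene besides tlr5 was called under it.

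Of 18 TNF receptor genes 3 rose and 1 fell in moderate hypoxia, 16.7% and 5.56% against 22.3% and 3.94% of all genes. In acute hypoxia 1 fell, 5.56% against 3.5%. Tnfrsf21 (ncbi_110506163, annotated as member 11B, the decoy receptor osteoprotegerin) was lower in both hypoxia groups, which share the control libraries. It had 2.28, 2.25 and 1.74 FPKM in control, 1.17, 1.38 and 1.31 FPKM in moderate hypoxia and 1.14, 1.48 and 1.09 FPKM in acute hypoxia. Neither hypoxia group overlapped control. The fall was 0.70 relative to the median in moderate hypoxia (limma adjusted p = 0.014) and 0.58 in acute hypoxia (limma adjusted p = 0.0269), and leaving out some single libraries ended either call (highest adjusted p 0.0603 and 0.114), the latter also without a minimum on FPKM. Cd40 (ncbi_101268951), a receptor by which T cells activate B cells and macrophages, fell by 0.78 relative to the median in acute against moderate hypoxia (limma adjusted p = 0.0157), from 3.05, 1.14 and 2.07 FPKM to 0.542, 0.939 and 0.775 FPKM. That call was lost without moderate replicate 1 or acute replicate 1 and under quantile normalization (highest adjusted p 0.0626). TNFRSF19 (ncbi_110507838) was the only TNF receptor gene called higher in that comparison, by 0.79 relative to the median (limma adjusted p = 0.0197), and lost its call without any of 4 libraries (highest adjusted p 0.0759).

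A group of 4 nearby genes annotated as TNF receptor superfamily member 14, a receptor for the ligand LIGHT in mammals, differed in level and in call. The highest (UL144, ncbi_110532762) had a mean of 12.2 FPKM and was called in no comparison. Of the 4, only ncbi_110532769 was called, rising from 2.12, 1.43 and 2.05 FPKM in control to 2.80, 3.05 and 3.11 FPKM in moderate hypoxia (0.40 relative to the median, limma adjusted p = 0.0141). Median-of-ratios scaling and quantile normalization ended that call (highest adjusted p 0.118).

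Among the genes called, the adaptors and kinases held the largest change in moderate hypoxia against control and in acute against moderate hypoxia. In acute hypoxia against control a C-C motif chemokine 19 gene (ncbi_110523665) had the largest log2 difference, -2.355 against -2.233 for the kinase gene RIPK2 (ncbi_110526239). By ratio of means RIPK2, the gene at lower FPKM, fell further. Their order thus depended on the measure used. Both TRAF7 genes, which encode a ubiquitin ligase that acts with the kinase MEKK3 in mammals, rose in moderate hypoxia. One (ncbi_110511701) had 16.8, 19.1 and 6.76 FPKM in control, 73.2, 69.0 and 81.9 FPKM in moderate hypoxia and 34.8, 35.2 and 27.9 FPKM in acute hypoxia. The 3 groups did not overlap, and the moderate mean was 5.26-fold and the acute mean 2.30-fold the control mean. The rise in moderate hypoxia was 2.31 relative to the median (SE 0.29, limma adjusted p = 0.000385). The rise in acute hypoxia was 1.29 (SE 0.29, limma adjusted p = 0.026) and was lost without acute replicate 1 or 2 (highest adjusted p 0.0895), and also without the minimum on FPKM, with robust variances or with only these 2 groups fitted (highest adjusted p 0.0883).

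That acute difference also depended on the quantification. In the authors' separate table of acute hypoxia with control the same gene had 16.4, 18.2 and 16.4 FPKM in control and 27.1, 24.8 and 25.4 FPKM in acute hypoxia. On those values the rise was 0.59 (limma adjusted p = 0.0101), and the third control library no longer stood apart. The second TRAF7 gene (ncbi_110517092) had 10.5, 12.4 and 12.9 FPKM in control, 32.5, 22.3 and 42.5 FPKM in moderate hypoxia and 16.4, 15.2 and 14.9 FPKM in acute hypoxia. It rose in moderate hypoxia by 1.20 relative to the median (limma adjusted p = 0.000751). In acute hypoxia all 3 libraries lay above all control libraries, but the difference of 0.37 did not pass the test (adjusted p = 0.299). Between the 2 genes the ratio of FPKM ran from 0.523, in control replicate 3, to 3.09 over the libraries.

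RIPK2 (ncbi_110526239), the kinase that relays signals from the NOD receptors to NF-kappa-B, had 4.74, 7.56 and 2.59 FPKM in control, 9.47, 5.47 and 8.25 FPKM in moderate hypoxia and 0.652, 0.375 and 0.747 FPKM in acute hypoxia. Acute libraries lay below all others, and control and moderate libraries overlapped. The acute mean was 8.39-fold below the control mean and 13.1-fold below the moderate mean. RIPK2 fell by 2.23 against control (SE 0.30, limma adjusted p = 0.00155) and by 2.68 relative to the median against moderate hypoxia (SE 0.30, limma adjusted p = 0.000201). Both calls held with each library left out and in each alternative fit that tested the gene. In the authors' deposited table the log2 fold change against control was -3.07 with an FDR of 3.55e-07.

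A second gene with the same product name, Ripk2 (ncbi_110508995), had 0.539 to 0.761 FPKM in control, 0.638 to 0.868 FPKM in moderate and 0.410 to 0.690 FPKM in acute hypoxia, with overlap between all groups, and was not called. In acute hypoxia both copies were thus at a similar level, with a ratio of 0.619 to 1.82, against 4.81 to 9.94 in control. The NOD receptor genes upstream of the kinase that reached the minimum mean, both annotated Nod1, were low. They had 0.761 to 1.33 FPKM (ncbi_110511923) and 0.343 to 0.783 FPKM (ncbi_110539162) over the 9 libraries. The mean of ncbi_110511923 was 0.871 FPKM in control and 0.979 FPKM in acute hypoxia. That of ncbi_110539162 was 0.709 FPKM in control and 0.384 FPKM in acute hypoxia. In the authors' separate table of acute hypoxia with control, each acute library of ncbi_110539162 lay below each control library. Neither Nod1 gene was called under the deposited scaling. The gene nod2 (ncbi_100529152), with a mean of 0.297 FPKM, lay below the minimum.

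Both irak3 genes, which encode an inhibitory member of the IRAK family that restrains toll-like and interleukin-1 receptor signalling in mammals, were highest in moderate hypoxia. The gene irak3 (ncbi_101268966) had 1.87, 2.99 and 1.97 FPKM in control, 6.11, 3.75 and 3.53 FPKM in moderate hypoxia and 1.21, 0.961 and 1.10 FPKM in acute hypoxia, with no overlap between any of the groups. It rose by 0.66 relative to the median in moderate hypoxia (limma adjusted p = 0.0126; 0.0527 without control replicate 1). It fell by 0.78 in acute hypoxia against control (SE 0.20, limma adjusted p = 0.0427). That call was lost on leaving out any 1 of the 6 libraries (highest adjusted p 0.138), with a pseudocount of 1, without the minimum on FPKM and with a replicate block (highest adjusted p 0.115). The difference between acute and moderate hypoxia, a fall by 1.39 relative to the median (limma adjusted p = 0.000435), held with each library left out and in each alternative fit that tested the gene.

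Irak3 (ncbi_118936278) had 1.31, 1.34 and 0.900 FPKM in control, 2.44, 1.93 and 2.49 FPKM in moderate hypoxia and 0.571, 0.989 and 0.786 FPKM in acute hypoxia. Moderate libraries stood above all others, and acute and control libraries overlapped. It rose by 0.57 relative to the median in moderate hypoxia (limma adjusted p = 0.00754) and fell by 0.91 relative to the median in acute against moderate hypoxia (limma adjusted p = 0.000803). Acute against control did not pass the test (adjusted p = 0.191). Of the activating IRAK genes, irak1 (ncbi_110492704) rose by 0.31 relative to the median in moderate hypoxia (limma adjusted p = 0.029), a call lost without any of 5 libraries, without a minimum on FPKM, under median-of-ratios scaling and quantile normalization and with a replicate block (highest adjusted p 0.174), and Irak4 (ncbi_110493646) was not called (adjusted p = 0.0758). The gene myd88 (ncbi_100136123), the adaptor they bind, rose by 0.37 relative to the median (limma adjusted p = 0.0149), which was lost without control replicate 1 or moderate replicate 1 and under median-of-ratios scaling or quantile normalization (highest adjusted p 0.103); irak1, Irak4 and myd88 were chosen after their values were seen.

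**Figure D3:**
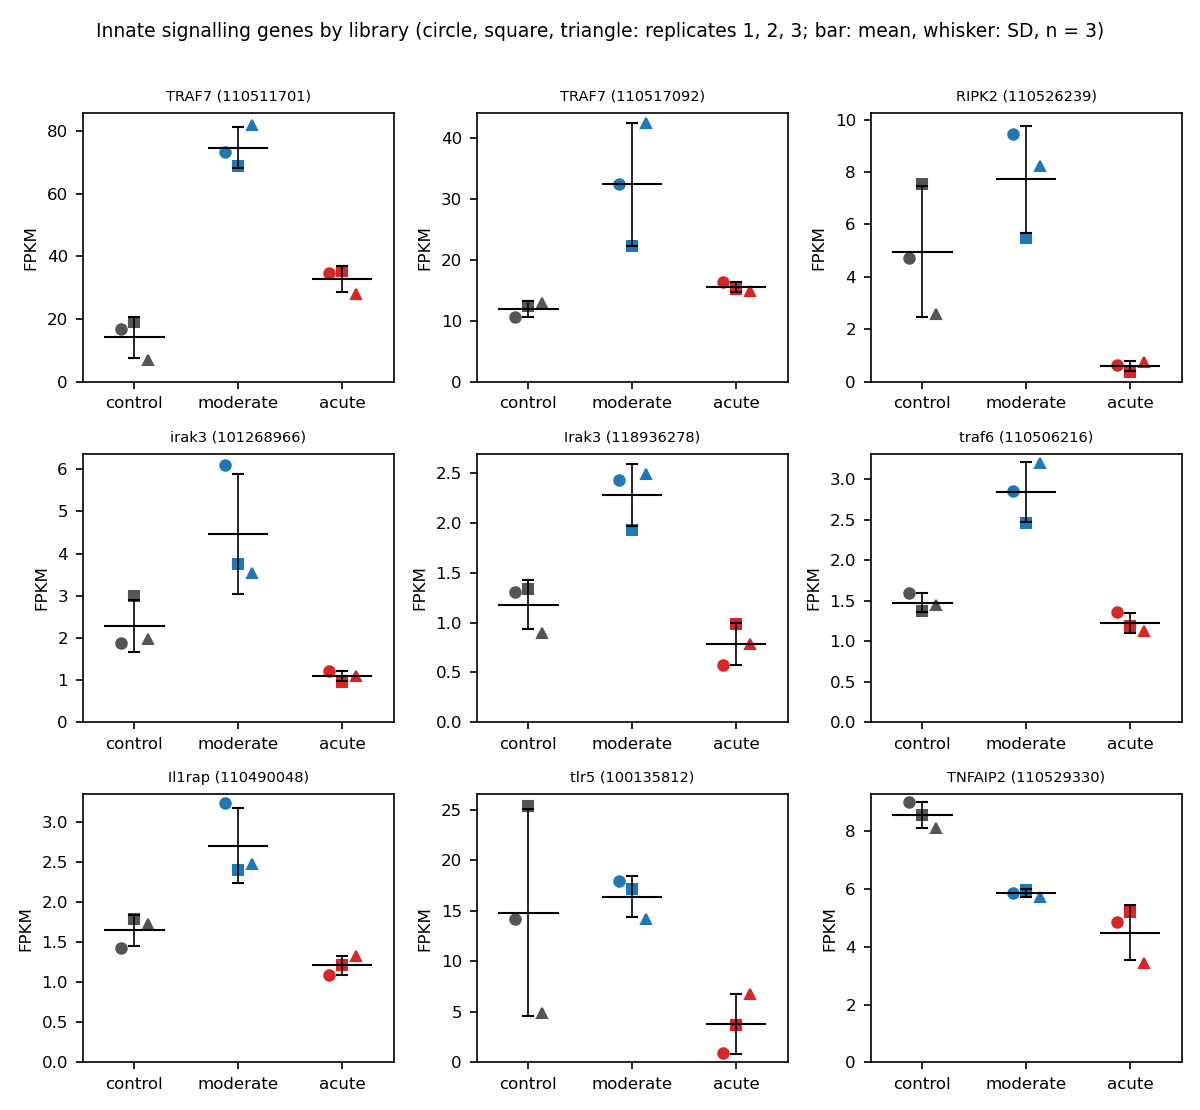
FPKM (vertical axis, linear, from 0) of 9 signalling genes in each of the 9 libraries, with mean and SD of 3 libraries a group. RIPK2 lies between 0.375 and 0.747 FPKM in acute hypoxia, below every other library, and both TRAF7 genes are highest in moderate hypoxia.

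Further down the same routes, traf6 (ncbi_110506216), the ubiquitin ligase shared by toll-like and interleukin-1 receptors, had 1.599, 1.36 and 1.45 FPKM in control, 2.86, 2.46 and 3.20 FPKM in moderate hypoxia and 1.35, 1.19 and 1.12 FPKM in acute hypoxia. The 3 groups did not overlap. It rose by 0.59 relative to the median in moderate hypoxia (limma adjusted p = 0.0015) and fell by 0.74 relative to it in acute against moderate hypoxia (limma adjusted p = 0.000448), both past the test in each alternative fit that tested it and both short of the fold threshold. Ripk1 (ncbi_110508625), the kinase at the branch between NF-kappa-B and cell death below TNF receptors, had 2.43, 2.15 and 1.74 FPKM in control, 3.71, 3.11 and 3.66 FPKM in moderate hypoxia and 1.90, 2.12 and 1.89 FPKM in acute hypoxia. Moderate libraries stood above all others, and the rise was 0.45 relative to the median (limma adjusted p = 0.00509). The adaptor gene traf2b (ncbi_110523569) rose by 0.50 relative to the median in moderate hypoxia (limma adjusted p = 0.0162; 0.066 without moderate replicate 1; 0.0602 under median-of-ratios scaling).

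Genes named for induction by TNF included TNFAIP2 (ncbi_110529330), a gene of endothelium and blood cells in mammals, at 9.01, 8.56 and 8.13 FPKM in control, 5.88, 5.98 and 5.72 FPKM in moderate hypoxia and 4.85, 5.201 and 3.43 FPKM in acute hypoxia. Control libraries stood above all others. The gene fell by 0.88 in acute hypoxia (SE 0.13, limma adjusted p = 0.00346), past the test in each alternative fit and with each library left out, but short of the fold threshold. It fell by 0.68 relative to the median in moderate hypoxia (limma adjusted p = 0.0178), a call lost without control replicate 1 or moderate replicate 1 (highest adjusted p 0.0678). Its neighbour of the same name (ncbi_110529331), at 0.169 to 1.006 FPKM, was not called. The levels of this pair depended on the quantification. In the authors' separate table of acute hypoxia with control, the neighbour had means of 0.155 and 0.087 FPKM in control and acute hypoxia. Here they were 0.624 and 0.437 FPKM. Means of ncbi_110529330 were 10.1 and 5.58 FPKM there, against 8.57 and 4.49 FPKM here. Its fall still passed the test there (0.81, limma adjusted p = 0.0196). Of the 5 genes annotated as TNF alpha-induced protein 2, ncbi_110507509 was called higher in moderate hypoxia, by 0.51 before subtraction of the median. Another, ncbi_110497812, was called lower in acute against moderate hypoxia, by 0.50 before subtraction. Each of these has the symbol EXOC3L2 rather than TNFAIP2. Both calls were lost without some single libraries and under median-of-ratios scaling and quantile normalization.

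TNFAIP3 genes numbered 2 and encode A20, a deubiquitinase that limits NF-kappa-B. One (ncbi_100136337) had 1.75, 1.92 and 1.54 FPKM in control, 3.78, 1.66 and 2.40 FPKM in moderate hypoxia and 1.19, 1.013 and 0.692 FPKM in acute hypoxia. The other (ncbi_110502983) had 1.57, 1.90 and 1.27 FPKM, 3.88, 1.77 and 2.52 FPKM, and 0.813, 0.976 and 0.720 FPKM. Acute libraries lay below all others for both genes, and the ratio between the copies stayed between 0.940 and 1.47, so shared reads cannot be told apart from a shared change. They fell by 0.83 and 1.008 relative to the median in acute against moderate hypoxia (limma adjusted p = 0.0057 and 0.0022), in each alternative fit that tested them. Neither was called against control in either hypoxia group.

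Some genes met the rule by name only, and their products are no immune mediators. One of them, with the symbol TRAF3IP3 and the product name of a dynactin subunit (ncbi_110492599), had 0.236 to 0.990 FPKM over the 9 libraries and fell by 0.39 relative to the median in acute against moderate hypoxia (limma adjusted p = 0.0352), a call lost under median-of-ratios scaling and without any of 4 libraries (highest adjusted p 0.128). Without the 8 genes of this kind, a choice made after seeing the data, 24, 7 and 26 of the remaining 96 genes were called in the 3 comparisons. These shares of 25%, 7.29% and 27.1% lie close to the 26.2%, 5.9% and 29.6% of all genes.

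The NF-kappa-B system that these receptors feed was described with a list of 67 tested genes that are not among the 104. The symbols searched for this list covered both activators and inhibitors of NF-kappa-B. They also included interferon regulatory factors and genes of cell death, so the list does not isolate NF-kappa-B. In moderate hypoxia 23 of the 67 were higher and 1 lower, 34.3% and 1.49% against 22.3% and 3.94% of all genes, with a median 0.13 above that of all genes. In acute hypoxia 0 were higher and 8 lower, 11.9% lower against 3.5% of all genes, and the list median was -0.26 against -0.04. In acute against moderate hypoxia 38 were lower and 0 higher, 56.7% against 26.1%. Rescaled by the median of ratios, the list had 17 genes higher and 1 lower in moderate hypoxia, against 9.87% and 11.6% of all genes. In acute hypoxia it had 1 and 9, against 3.25% and 2.92%. Between the hypoxia groups it had 0 and 23, against 11% and 8.39%. These shares are a description of the list and no test of it, and the list was chosen with earlier results of these data known.

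Relb, a subunit of the non-canonical NF-kappa-B dimer, was low in acute hypoxia. The gene ncbi_110507414 had 9.43, 14.4 and 5.66 FPKM in control, 19.8, 9.97 and 15.7 FPKM in moderate hypoxia and 1.37, 1.02 and 0.593 FPKM in acute hypoxia. Its copy ncbi_110503511 had 2.64, 3.76 and 2.16 FPKM, 4.93, 3.97 and 2.78 FPKM, and 0.880, 0.812 and 1.004 FPKM, a fall by 1.24 in acute hypoxia against control (limma adjusted p = 0.00494). In both copies acute libraries lay below all others. RELA (ncbi_110531834), the main activating subunit, rose instead in moderate hypoxia, from 7.72, 7.17 and 8.48 FPKM to 18.7, 15.5 and 16.4 FPKM (0.90 relative to the median, limma adjusted p = 0.000149). In acute hypoxia RELA had 9.89, 9.53 and 10.1 FPKM, above each control library but not past the test (adjusted p = 0.102). MAP3K7 (ncbi_110522122), the kinase TAK1 activated by TRAF6, rose by 0.76 relative to the median in moderate hypoxia (limma adjusted p = 0.000579), and did not pass against control in acute hypoxia (adjusted p = 0.825).

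**Figure D4:**
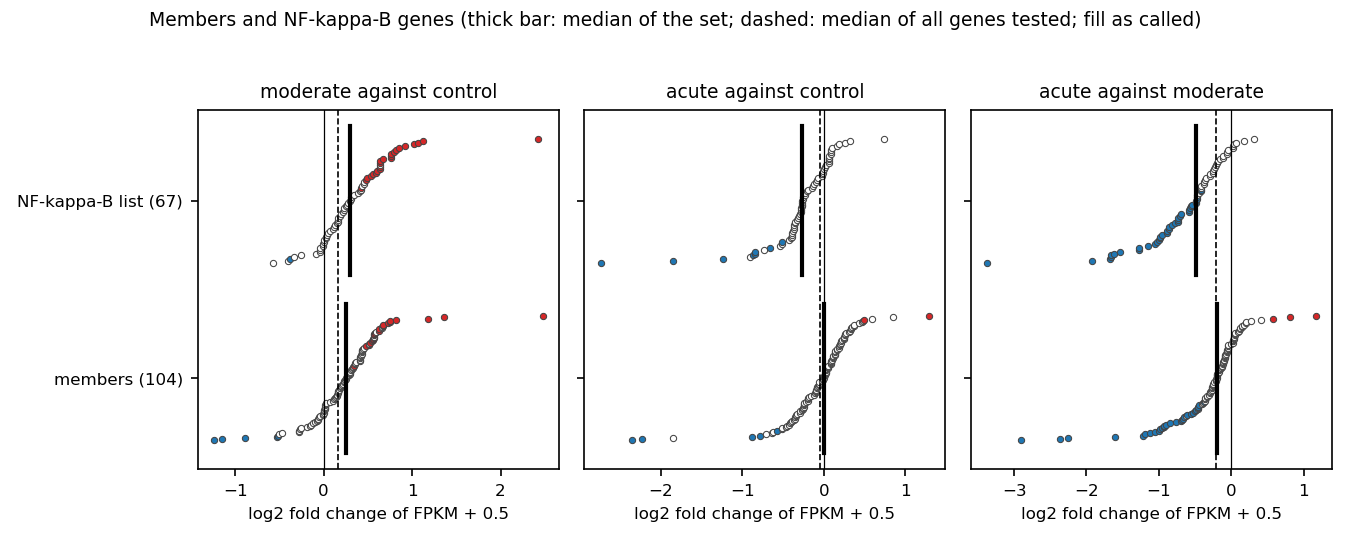
Log2 fold change of FPKM + 0.5 on the horizontal axis for the 104 genes of this account (members) and for the 67 genes of the NF-kappa-B list, in the 3 comparisons. The list also includes interferon regulatory factors and genes of cell death among its search symbols. Red and blue points were called higher and lower by limma. The median of the 104 genes lies near that of all genes tested in each comparison, and the NF-kappa-B list has 38 of 67 genes called lower in acute against moderate hypoxia.

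The authors' deposited table, whose test is unknown from the sources used here, had fewer of the 104 genes at an FDR under 0.05 in 2 comparisons: 6 higher and 4 lower in moderate hypoxia against control, 2 higher and 6 lower in acute hypoxia against control, and 5 higher and 14 lower in acute against moderate hypoxia. The share of all genes at that FDR was not counted, so these counts cannot be set against it. Between libraries of 1 group the 104 genes had a median coefficient of variation of 0.156, 0.157 and 0.168 in control, moderate and acute hypoxia, against 0.124, 0.138 and 0.137 over all genes tested.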

How the data were processed

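Per the file headers, the authors deposited FPKM for each gene in each library. Beside them stand the authors' log2 fold changes, with p-values and FDR, between groups. Bowtie2 2.2.8 and TopHat2 2.1.1 are named per the submitters' processing notes; the sources used here name no counting tool, strand setting, genome build or test. The deposited table stacks 3 tables. Control and moderate values come from the first, and acute values from the last, which repeats the moderate values exactly; the table of acute hypoxia with control has other values for some genes and served as an alternative.

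The 18229 genes averaging 0.5 FPKM or more were fitted as log2(FPKM + 0.5) with limma 3.58.1 in R 4.3.3 (mean trend, all 3 groups in 1 fit, no covariate), and p-values were adjusted by Benjamini-Hochberg over all of them. The test was checked on simulated data with independent noise, few genes changed in 1 group and no shift of all genes. The data here differ in that many genes moved, so the check does not extend to such shifts. Where the median change of all genes exceeds 0.1 on the log2 scale it is subtracted, and p is that of the change before subtraction. All 104 gene IDs were found in a RefSeq annotation table of assembly USDA_OmykA_1.1, used only to see which genes neighbour each other. Named genes are RIPK2, irak3, TRAF7 and their copies, the genes called (at most 12 in a direction and comparison, by size of change), the 2 most abundant of each class, and copies of these; of NF-kappa-B genes at most 6 in a direction and comparison by smallest p, of which some are given; a few results are not reported here. The genes, lists and rules were chosen with earlier results of these data known. Alternatives were other pseudocounts (0.1, 1) and minimum means (none, 1, 5 FPKM), median-of-ratios and quantile scaling, limma without the trend, with robust variances, with 2 groups or a replicate block, a fold threshold, the other table, and each library left out. Same-numbered libraries of different groups did not deviate together (correlations across genes from -0.118 to 0.066), so the replicate numbers were not used as pairs.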

Additional observations from a re-analysis of the deposited data

Results flagged for a closer look

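For 5 genes every moderate hypoxia library lay above every control library and every acute hypoxia library below every control library. In these deposited FPKM, which were not rescaled for this count, the 2 hypoxia groups thus lay on opposite sides of the same controls. They were 4.81% of the 104 genes, and 2.91% of all genes tested had this order of groups. This order already sets the 2 hypoxia groups apart, and limma called 520 of the 531 genes of all those tested that have it in acute against moderate hypoxia. That call is therefore no independent test of the difference in these genes, which was not tested otherwise. Before subtraction of the median of all genes, -0.21, the log2 fold change of acute against moderate hypoxia was, for the 3 genes reported here, -1.61 for irak3 (ncbi_101268966), -0.95 for traf6 (ncbi_110506216) and -0.90 for Il1rap (ncbi_110490048). Of these 3, acute hypoxia against control passed the test only for irak3, and that call was lost with any 1 library left out. A fall in acute hypoxia against control is therefore not shown for traf6 and Il1rap. The level of traf6 also depended on the quantification. Its control mean was 1.47 FPKM here and 1.05 FPKM in the authors' separate table of acute hypoxia with control.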

How the results depend on the processing

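Of 1074 pairs of a called gene and an alternative fit that tested it, 889 kept the call, 185 lost it and 0 changed sign. Calls held in all fits that tested the gene for 9 of 27 genes in moderate hypoxia against control, 3 of 7 in acute hypoxia against control and 14 of 32 in acute against moderate hypoxia; of these, 6, 1 and 11 were not tested with a minimum mean of 5 FPKM, and 4, 2 and 7 also passed the fold threshold, which is not one of these fits. In that order, the counts were 7, 3 and 7 of the 104 genes, 1257, 571 and 1443 of all genes and 6, 4 and 11 of the NF-kappa-B list with a minimum mean of 5 FPKM, under which fewer genes are tested. With an added log2 fold change of at least 1 they were 5, 3 and 9, 415, 195 and 498, and 4, 3 and 12. Without a minimum, acute hypoxia against control gave 3 of the 104 genes, 700 of all genes and 3 of the NF-kappa-B list; the cause was not tested. Acute against moderate hypoxia gave 3531 of all genes and 23 of the list under median-of-ratios scaling, and 3081 and 24 under quantile normalization, both of which remove the shift of all genes.

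With 1 library left out, the 104 genes gave 18 to 33, 4 to 7 and 18 to 30 calls, all genes 2938 to 4199, 420 to 858 and 3329 to 4792, and the list 18 to 24, 3 to 8 and 29 to 37. The 4 in acute hypoxia against control came without control replicate 1 or 2 or acute replicate 1 or 2, and the 18 in acute against moderate hypoxia without moderate replicate 1. For all genes, 2938 and 3053 came without control replicate 1 and moderate replicate 1 in moderate hypoxia, and 3329 without moderate replicate 1 in acute against moderate hypoxia. In acute hypoxia against control 420, 592, 715 and 560 of all genes came without control replicates 1 and 2 and acute replicates 1 and 2, and 3 of the list without each of these but acute replicate 1. With a replicate block, although the numbers do not pair the libraries, 26, 6 and 29 of the 104 genes were called. Over all genes the counts were 4123, 772 and 4699, and 5 of the list were called in acute hypoxia against control. Genes near 0.5 FPKM rest on few fragments, and read totals are unknown, so a missing call there does not show that levels were alike.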

Other observations

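Several of the genes lowest in acute hypoxia also varied alike between the control libraries, where replicate 2 had the highest and replicate 3 the lowest value. This held for RIPK2 (ncbi_110526239) at 4.74, 7.56 and 2.59 FPKM, the C-C motif chemokine 19 gene ncbi_110523665 at 14.0, 26.8 and 6.20 FPKM, tlr5 (ncbi_100135812) at 14.2, 25.3 and 4.89 FPKM and Relb (ncbi_110507414) at 9.43, 14.4 and 5.66 FPKM. The NF-kappa-B inhibitor gene NFKBIA (ncbi_110522049) showed the same pattern at 12.3, 16.0 and 8.01 FPKM and had 3.003, 3.02 and 2.63 FPKM in acute hypoxia. These genes were picked after their values were seen, and no test was made. Other genes lowest in acute hypoxia had another order in control, among them TNFAIP2 (ncbi_110529330), irak3 (ncbi_101268966), Il1rap (ncbi_110490048) and traf6 (ncbi_110506216). Of 9 summed lists of cell type genes, 4 had replicate 2 highest and replicate 3 lowest in control. T and NK cell genes had 15.46, 15.5 and 14.6 FPKM and B cell genes 49.8, 57.4 and 46.1 FPKM. Bile duct genes had 59.6, 62.9 and 58.2 FPKM and red cell genes 1085, 1267 and 1059 FPKM. Macrophage genes were highest in replicate 2 too, at 74.9 FPKM, but had 65.6 and 66.3 FPKM in replicates 1 and 3. The library factors of the median-of-ratios scaling also had replicate 2 highest and replicate 3 lowest in control, at 0.943, 0.998 and 0.937. How many of all genes had this order was not counted. The part of these cells was not tested.

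Ikbkg (ncbi_110532862), the regulatory subunit of the kinase that releases NF-kappa-B, also chosen after its values were seen, had a wide spread within groups: 2.196, 6.20 and 1.76 FPKM in control, 24.0, 17.7 and 13.5 FPKM in moderate hypoxia and 5.06, 13.4 and 1.97 FPKM in acute hypoxia. Moderate libraries lay above all others, by 2.25 relative to the median of all genes against control (limma adjusted p = 0.00884).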
